A study of Mus musculus with 12 samples.

Results

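The serotonin receptor genes of the mouse medial prefrontal cortex were followed as a family of 10 genes: Htr1a, Htr1b, Htr1f, Htr2a, Htr2c, Htr3a, Htr4, Htr5a, Htr6 and Htr7. They were taken from the table of raw counts by matching Ensembl gene IDs to these symbols, which gave 10 of 55401 gene IDs, and all 10 passed the filter on low counts that left 21958 genes for testing. RNA-seq libraries were made from tissue of male mice whose conditioned place preference, a learned liking for a chamber paired with a drug, had undergone extinction for 2 weeks. In the knockdown group with morphine, an adeno-associated virus was used to knock down the receptor 5-HT6R, the product of Htr6. In the scramble group with morphine, the virus carried a control sequence, and in the scramble group with saline that same control was combined with saline in place of morphine. Every group had 4 libraries and every group received a virus. A knockdown group with saline was not analysed here, so the virus and the drug cannot be told apart when knockdown with morphine is set against scramble with saline. The sources used here do not give the promoter of the virus, the cell types it reached or the age of the mice. The labels name no animal for a library, so the p-values measure only how far these samples vary, part of which may be technical.

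Serotonin reaches the cortex through axons of raphe neurons and acts there on receptors of several classes. Receptors that couple to Gi/o proteins (the products of Htr1a, Htr1b, Htr1f and Htr5a) lower cyclic AMP and tend to quiet neurons, those that couple to Gq proteins (Htr2a and Htr2c) act through phospholipase C, and those that couple to Gs proteins (Htr4, Htr6 and Htr7) raise cyclic AMP. Htr3a encodes a subunit of a ligand-gated ion channel, the only such class in the family. In the prefrontal cortex, Htr2a and Htr1a are best known from pyramidal neurons, Htr3a from a class of interneurons, and the Htr6 product from neuronal primary cilia.

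Total counts ran from 41483220 to 65739423 per library. A ribosomal RNA locus, CT010467.1, took 4.57 to 9.38% of counts in the knockdown libraries with morphine, 2.38 to 3.04% in scramble with morphine and 3.58 to 5.63% in scramble with saline, so scramble with morphine overlapped neither of the other groups in this share. Knockdown replicate 1 had the highest share, 9.38%, and was also the lowest of its group for 5 of the 10 receptor genes (Htr1f, Htr2a, Htr3a, Htr5a and Htr7). Scramble saline replicate 4 was the lowest of its group for 7 members and the highest for Htr1a. The part of the ribosomal share in the receptor values was examined only as a covariate, with which 14 of 30 fold changes changed sign and none passed the test. The excitatory markers of cortex were abundant, with Slc17a7, a vesicular glutamate transporter, at 1565 to 2007 CPM (counts scaled to library size with TMM factors), and the interneuron enzyme gene Gad1 at 202 to 233 CPM. Of 4 markers of raphe serotonin neurons, 3 were at or near 0, with 0 to 28 counts of Tph2, 0 to 23 of Slc6a4 and 0 to 6 of Fev per library. The fourth, Slc18a2, which encodes a vesicular monoamine transporter, had 89 to 393 counts (1.93 to 6.81 CPM).

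Htr6 was examined before the other members because the virus targets it (ENSMUSG00000028747, mm10 chr4:139061108-139075570, minus strand). Values within a group follow the replicate numbers, which are 1, 2, 3 and 5 for knockdown with morphine, 1, 3, 4 and 5 for scramble with morphine, and 2, 3, 4 and 5 for scramble with saline. Htr6 stood at 4.49, 5.30, 3.82 and 5.46 CPM in knockdown libraries with morphine, 5.30, 5.16, 4.82 and 5.58 CPM in scramble with morphine, and 5.45, 6.92, 4.35 and 7.98 CPM in scramble with saline. Scramble with saline reached the highest values and was the most spread, and all 3 groups overlapped. Knockdown averaged 4.77 ± 0.763 CPM against 5.21 ± 0.320 CPM in scramble with morphine (SD, n = 4 each), a log2 fold change of -0.13 (SE 0.18, edgeR adjusted p = 0.823). The 95% interval of that fold ran from 0.696 to 1.20, so a fold below 0.696 lay outside it and smaller decreases were not detectable at this spread. Against the 6.17 ± 1.60 CPM of scramble with saline (SD, n = 4), the knockdown value differed by -0.37 on the log2 scale (SE 0.18, edgeR adjusted p = 0.560; interval of the fold 0.589 to 1.01). The targeted transcript therefore gave no check of the labels, and the part of it that the virus targets is not known here. In tissue RNA, fewer cells of a type and less RNA per cell cannot be told apart.

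Across the family, no receptor gene passed the test in any comparison, whether the virus or the drug was changed. Between knockdown with morphine and scramble with morphine, 0 of 10 members had an edgeR adjusted p under 0.05 (background 0.0% of all genes tested), 0 had an unadjusted p under 0.05 (background 12%) and 0 had groups without overlap in CPM (background 5.85%). For morphine against saline under the scramble virus, the counts were 0 by adjusted p (background 0.0%), 1 by unadjusted p, which was Htr2a (background 3.48%), and 0 without overlap (background 3.32%). With knockdown and morphine set against scramble with saline, they were 0 (background 0.0137%), 0 (background 9.35%) and 0 (background 4.34%). With 10 members, counts of 0 and 1 are near these background shares. DESeq2 also called 0 of the 10 in each comparison, where it called 0.71% of all genes in knockdown against scramble with morphine, 0.0233% in morphine against saline under the scramble virus and 0.862% in knockdown with morphine against scramble with saline. With limma voom 0 of the 10 were called as well, beside 0.00455%, 0.0% and 0.0% of all genes in the same order of comparisons. The edgeR log2 fold changes were above 0 for 2 of 10 members in knockdown against scramble with morphine, Htr1a and Htr4, with a median of -0.08 against 0.00 over all genes. They were above 0 for 4 of 10 with morphine against saline under the scramble virus (median -0.04) and for 4 of 10 with knockdown and morphine against scramble with saline (median -0.03). Over all genes tested, 50.7%, 49.5% and 49.6% of log2 fold changes lay above 0 in these comparisons, in the order given. The same shares apply to the gene lists further below. These comparisons share libraries, so their fold changes are not independent of each other.

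**Figure D1:**
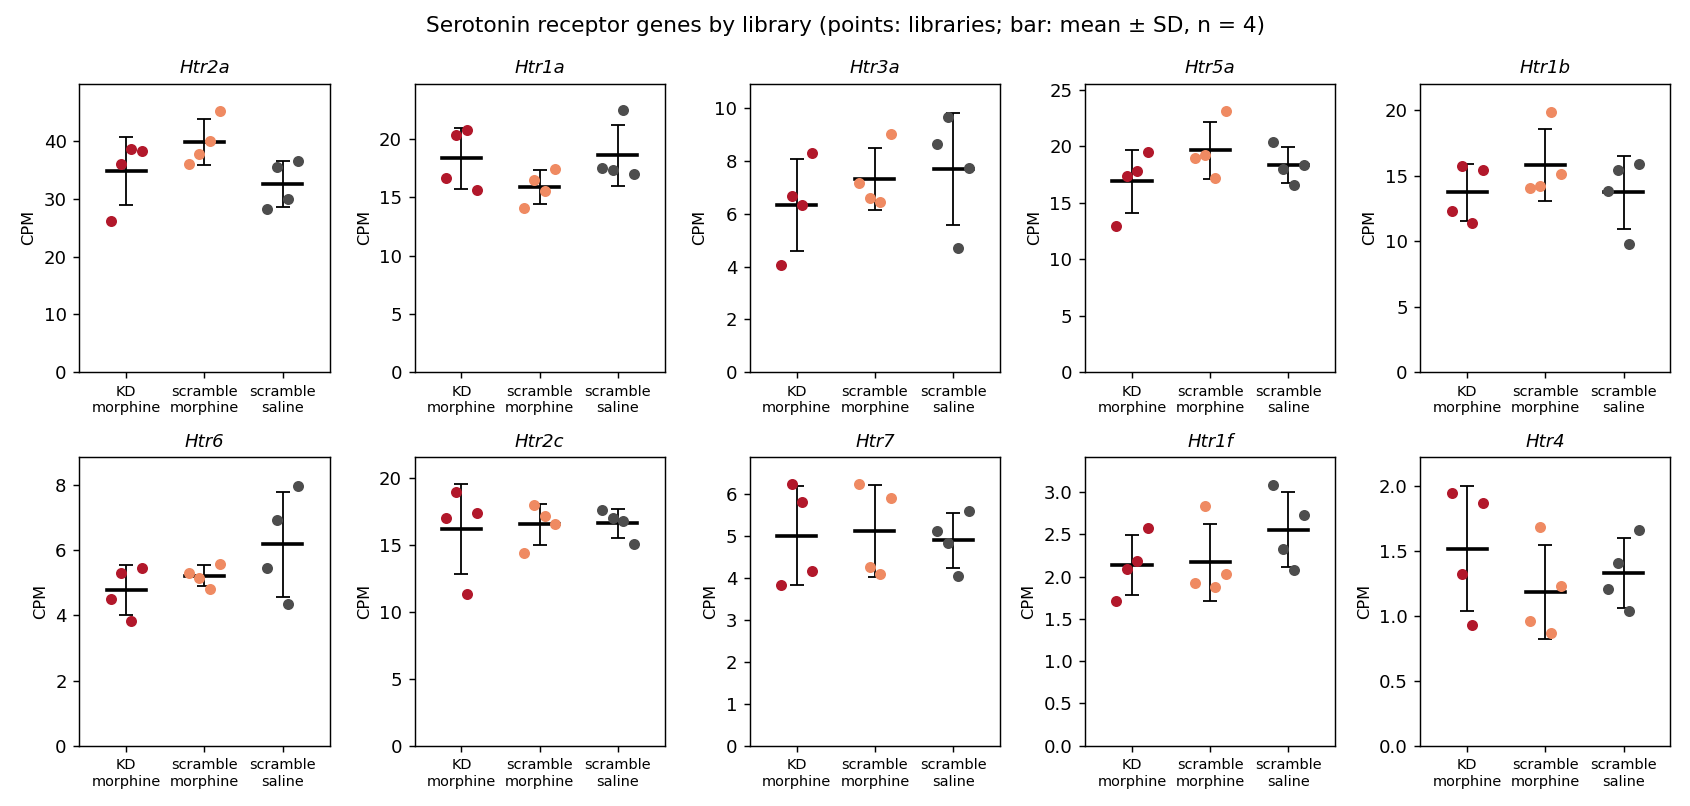
CPM of each receptor gene (vertical axis, from 0) in every library of knockdown with morphine (red), scramble with morphine (orange) and scramble with saline (grey); points are libraries and bars the mean ± SD of 4. The groups overlap for all 10 genes; the scramble saline library of replicate 4 stands apart at 22.5 CPM for Htr1a.

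Among the Gs-coupled members, Htr7, a receptor linked to circadian timing and mood, varied within groups as much as between them. Htr7 had 3.84, 6.24, 5.82 and 4.16 CPM in knockdown with morphine, 6.25, 4.26, 4.09 and 5.90 CPM in scramble with morphine, and 5.13, 4.84, 4.04 and 5.59 CPM in scramble with saline. In each morphine group, 2 libraries lay near 4 CPM and 2 near 6 CPM, and the saline libraries spanned 4.04 to 5.59 CPM. The fold of knockdown over scramble with morphine was 0.976 (interval 0.729 to 1.31), and that of morphine over saline under the scramble virus was 1.05 (0.783 to 1.40). Htr4, a receptor that promotes excitability and is known from hippocampus and gut, was the least abundant member, with only 36 to 119 counts per library. Its level was 1.94, 1.32, 0.927 and 1.87 CPM in knockdown with morphine, 0.960, 1.68, 0.867 and 1.23 CPM in scramble with morphine, and 1.21, 1.40, 1.04 and 1.66 CPM in scramble with saline. The 2 highest Htr4 values were knockdown libraries, but the next was a scramble library with morphine. Its log2 fold change of 0.35 in knockdown against scramble with morphine was the largest in size in that comparison and also the least precise (SE 0.29, edgeR adjusted p = 0.668, interval of the fold 0.829 to 1.97).

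Htr2a, the Gq-coupled receptor through which psychedelic drugs act, had the smallest p of the family in any comparison. It stood at 26.1, 36.1, 38.6 and 38.3 CPM in knockdown with morphine, 36.1, 37.8, 39.9 and 45.3 CPM in scramble with morphine, and 28.3, 35.4, 30.0 and 36.5 CPM in scramble with saline. Of the 4 scramble libraries with morphine, 3 lay above every scramble library with saline, and the fourth lay just under the highest saline value. The means were 39.8 ± 3.99 CPM in scramble with morphine and 32.6 ± 4.03 CPM in scramble with saline (SD, n = 4 each), a fold of 1.22 with an interval of 1.02 to 1.46. The log2 fold change of 0.29 (SE 0.12) had an edgeR unadjusted p of 0.0314, which was 443rd of 21958 genes and had an adjusted p of 0.999. An exact two-sided permutation test over the 70 assignments gave p = 0.0571, adjusted to 0.807 over 30 such tests; 0.0286 is the smallest p that this design allows. The difference is therefore not called. In knockdown with morphine the mean was 34.8 ± 5.90 CPM (SD, n = 4), with a log2 fold change of -0.19 against scramble with morphine (SE 0.12, edgeR adjusted p = 0.547) and 0.10 against scramble with saline (SE 0.12, adjusted p = 0.861). Htr2c, the other Gq-coupled member, whose transcript is edited by adenosine deaminases, had the lowest coefficient of variation of CPM in the family over the 12 libraries (12.2%). Its CPM ranged from 11.4 to 19.0 in knockdown with morphine, 14.4 to 18.0 in scramble with morphine and 15.1 to 17.6 in scramble with saline, with knockdown replicate 3 alone below 14. Its 3 folds lay between 0.974 and 0.994, with intervals that together spanned 0.799 to 1.21.

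Of the Gi/o-coupled members, Htr1a, the inhibitory receptor that is also the autoreceptor of raphe neurons, had fold changes opposite in sign to those of Htr2a in both comparisons that involve scramble with morphine, without passing the test in either. It had 16.7, 20.4, 20.8 and 15.6 CPM in knockdown with morphine, 14.1, 16.5, 15.6 and 17.4 CPM in scramble with morphine, and 17.5, 17.4, 22.5 and 17.0 CPM in scramble with saline. Scramble with morphine held the lowest values, although its highest, 17.4 CPM, lay within the range of each other group. Its log2 fold change was 0.21 in knockdown against scramble with morphine (SE 0.12, edgeR adjusted p = 0.505, interval of the fold 0.967 to 1.38) and -0.23 in scramble with morphine against scramble with saline (SE 0.12, adjusted p = 0.999, interval 0.715 to 1.02). Htr5a, a less studied receptor of cortex and hippocampus, had 12.9, 17.4, 17.8 and 19.5 CPM in knockdown with morphine, 18.9, 19.3, 17.1 and 23.1 CPM in scramble with morphine, and 20.4, 18.0, 16.6 and 18.3 CPM in scramble with saline. Knockdown replicate 1 was the lowest of all 12 libraries, and it was the library with the largest ribosomal share. Knockdown against scramble with morphine gave a log2 fold change of -0.22 (SE 0.12, edgeR adjusted p = 0.506); without that replicate it was the weakest of the 12 fits that each left out a library, at -0.11.

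Htr1b, a receptor of axon terminals that limits transmitter release, had 12.3, 15.7, 11.4 and 15.5 CPM in knockdown with morphine, 14.1, 14.2, 19.9 and 15.2 CPM in scramble with morphine, and 13.8, 15.4, 9.80 and 15.9 CPM in scramble with saline. The mean of knockdown with morphine, 13.7 ± 2.19 CPM, lay beside the 13.7 ± 2.77 CPM of scramble with saline, and scramble with morphine averaged 15.8 ± 2.76 CPM (SD, n = 4 each). The fold was 0.868 in knockdown against scramble with morphine (interval 0.684 to 1.10) and 1.15 in scramble with morphine against saline (0.908 to 1.46). Htr1b shares exon positions with the antisense gene D430036J16Rik, which held 46 to 188 counts where Htr1b held 590 to 1013, and since the use of strand in counting is not given, reads of the 2 genes may not be separable. Htr1f, the receptor targeted by a class of migraine drugs, averaged 2.14 ± 0.355 CPM in knockdown with morphine, 2.17 ± 0.451 CPM in scramble with morphine and 2.55 ± 0.446 CPM in scramble with saline (SD, n = 4 each). Its folds were 0.987 (interval 0.723 to 1.35) in knockdown against scramble with morphine and 0.849 (0.623 to 1.16) in morphine against saline under the scramble virus.

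Htr3a, the channel subunit, was the most variable of the members above 2 CPM. It had 4.05, 6.66, 6.33 and 8.29 CPM in knockdown with morphine, 7.18, 6.61, 6.45 and 9.03 CPM in scramble with morphine, and 8.67, 9.67, 4.71 and 7.75 CPM in scramble with saline. The lowest library was knockdown replicate 1, followed by scramble saline replicate 4. These were also the 2 lowest of the 12 libraries for the summed level of 14 markers of the interneurons that hold Htr3a, at 578 CPM and 636 CPM. The same 2 libraries were the lowest for the summed excitatory cortical markers too, at 4485 CPM and 4906 CPM. Cck and Cnr1, at means of 248 and 171 CPM, weighed most in the first sum. Camk2a and Slc17a7, at 2744 and 1812 CPM, weighed most in the second. Neither sum therefore speaks for every gene of its list, and whether the low level was particular to these interneurons was not tested. The summed interneuron markers spanned 578 to 769 CPM in knockdown with morphine, 715 to 794 CPM in scramble with morphine and 636 to 778 CPM in scramble with saline. The part of these markers in the Htr3a values was not tested. The fold of Htr3a was 0.866 in knockdown against scramble with morphine (interval 0.618 to 1.21), 0.951 in scramble with morphine against scramble with saline (0.680 to 1.33) and 0.823 in knockdown with morphine against scramble with saline (0.588 to 1.15).

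**Figure D2:**
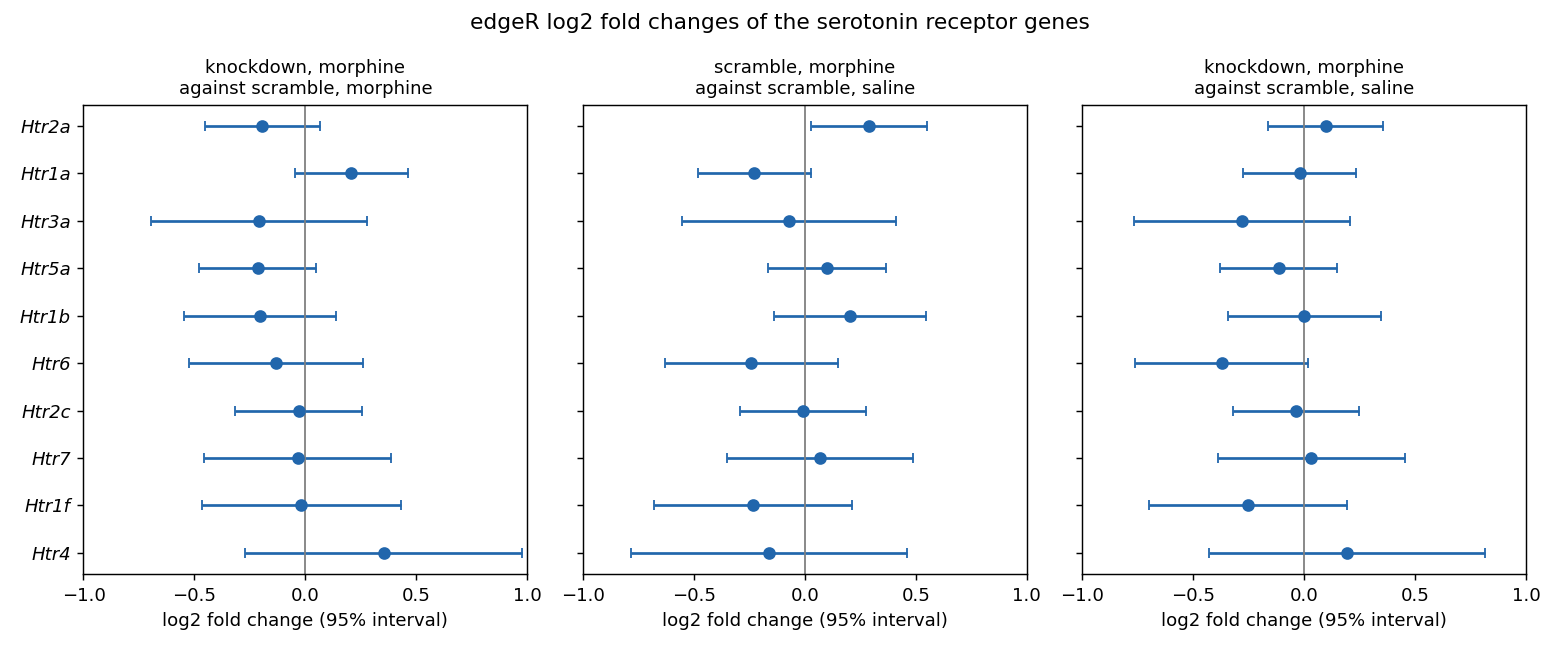
Log2 fold changes from edgeR (horizontal axis) of the 10 receptor genes in the 3 comparisons, with 95% intervals. Only the interval of Htr2a in scramble with morphine against scramble with saline lies apart from 0, and its adjusted p is 0.999.

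Levels of different receptor genes were compared per length, as counts per kilobase of exon scaled to a fixed total over all genes of a library, a TPM-like level. Over the 12 libraries Htr2a stood highest at 20.5 ± 3.82, followed by Htr1a at 12.6 ± 1.77, Htr3a at 11.0 ± 2.89, Htr5a at 11.0 ± 1.96, Htr1b at 9.82 ± 1.99 and Htr6 at 7.39 ± 1.67 (SD, n = 12). Htr2c at 5.65 ± 0.748, Htr7 at 4.73 ± 0.912, Htr1f at 2.85 ± 0.608 and Htr4 at 0.870 ± 0.224 followed. Htr2a lay above Htr1a in 12 of 12 libraries, by a mean ratio of 1.62 (exact two-sided sign-flip test over the libraries, p = 0.000488, the smallest it can give, adjusted to 0.0011 over 9 neighbour pairs). Htr1a, Htr3a, Htr5a and Htr1b formed a run whose neighbours did not differ beyond their spread (adjusted p = 0.138, 0.743 and 0.0904 by the exact sign-flip test). Below them, Htr1b lay above Htr6 in 11 of 12 libraries (exact test, adjusted p = 0.00176), and Htr6 above Htr2c, Htr7 above Htr1f and Htr1f above Htr4 in 12 of 12 each (exact test, adjusted p = 0.0011 each). Htr2c and Htr7 did not differ beyond their spread (exact test, adjusted p = 0.0593). The libraries of all 3 groups entered these tests, since none of the members was called between groups.

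**Figure D3:**
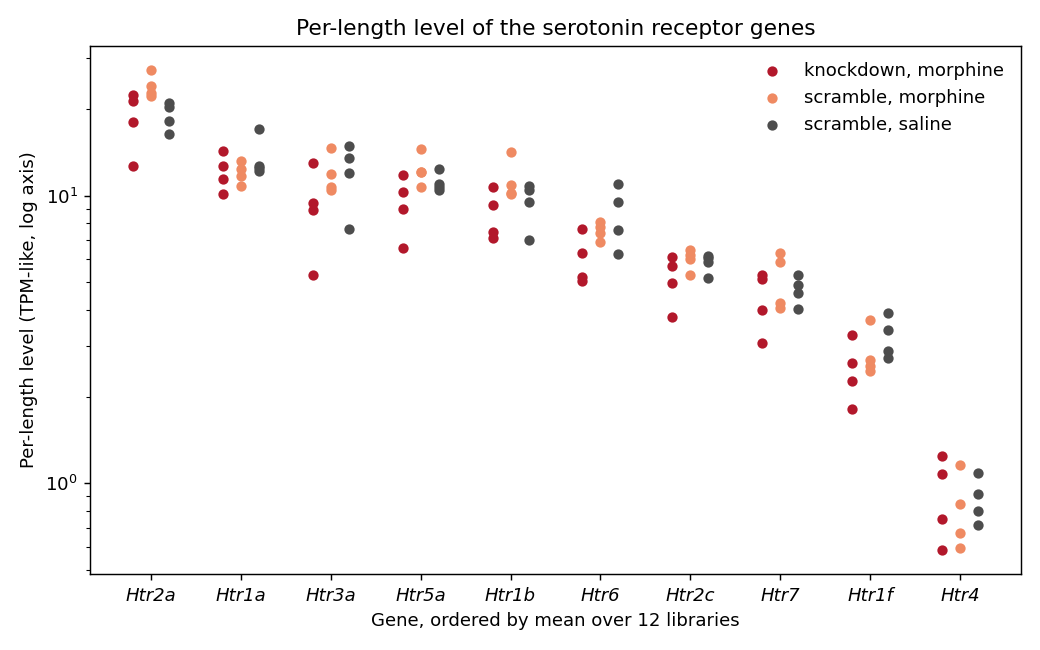
Per-length level (TPM-like, log axis) of each receptor gene in every library, ordered by the mean over 12 libraries, with knockdown with morphine, scramble with morphine and scramble with saline side by side. Htr2a at 20.5 is highest and Htr4 at 0.870 lowest, while Htr1a, Htr3a, Htr5a and Htr1b overlap.

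The length used moved some members in this order. The exons of Htr2c cover 9328 bases together but 4883 in the longest transcript, and with the length of the longest transcript Htr2c took place 5 in place of 7. This put Htr2c above Htr6, at 8.80 against 6.02, and coding length did so too, at 15.9 against 5.44. The order of Htr6 above Htr2c therefore holds for the full exon length only. Coding length alone put Htr5a in place 2 and Htr3a in place 6. Htr2a stayed in place 1 and Htr7, Htr1f and Htr4 in places 8 to 10 under each of the 3 lengths. Neighbour pairs were counted in the direction of the order by full exon length. Of 9 such pairs, 5 passed the test with the full exon length, 5 with the longest transcript and 7 with the coding length. Equal counts do not mean the same pairs. With the longest transcript, Htr2c and Htr7 stood further apart, at 8.80 against 4.15. With the coding length, the run of Htr1a, Htr3a, Htr5a and Htr1b spread from 22.7 for Htr5a to 6.46 for Htr3a.

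By signalling class, the 4 Gi/o-coupled genes together made up 42.1 ± 2.18% of the summed per-length level of the family in a library, the 2 Gq-coupled genes 30.3 ± 2.04%, the 3 Gs-coupled genes 15.1 ± 1.65% and the channel subunit 12.6 ± 2.15% (SD, n = 12). Htr2a alone made up 23.7 ± 2.32% and Htr6 8.54 ± 1.39%. All these shares rest on the full exon length, and shares by the other lengths were not computed. Coding length moved the level of Htr2c from 5.65 to 15.9 and that of Htr3a from 11.0 to 6.46. The class shares therefore depend on the length used. The Gq-coupled share was 30.8 ± 0.474% in knockdown with morphine, 32.0 ± 1.03% in scramble with morphine and 28.1 ± 1.86% in scramble with saline (SD, n = 4 each). The libraries of knockdown with morphine (30.3 to 31.3%) and of scramble with morphine (30.6 to 33.1%) overlapped each other and lay above those of scramble with saline (25.7 to 30.2%), the lowest knockdown library by little. This is a description of classes that was not tested. Among single genes, 3.32% of all genes tested had no overlap in morphine against saline under the scramble virus. The share was 4.34% in knockdown with morphine against scramble with saline. How often sums of genes have no overlap was not computed. The share of the ribosomal RNA locus, which did not overlap between the scramble groups, did overlap between knockdown with morphine (4.57 to 9.38%) and scramble with saline (3.58 to 5.63%). Its part in the class shares was not tested. The Gi/o-coupled share was 42.7 ± 1.51% in knockdown with morphine, 41.1 ± 1.62% in scramble with morphine and 42.5 ± 3.23% in scramble with saline (SD, n = 4 each). The Gs-coupled share was 14.9 ± 1.22% in knockdown with morphine, 14.4 ± 1.57% in scramble with morphine and 15.9 ± 2.07% in scramble with saline (SD, n = 4 each), and the ranges of both classes overlapped in all 3 groups.

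**Figure D4:**
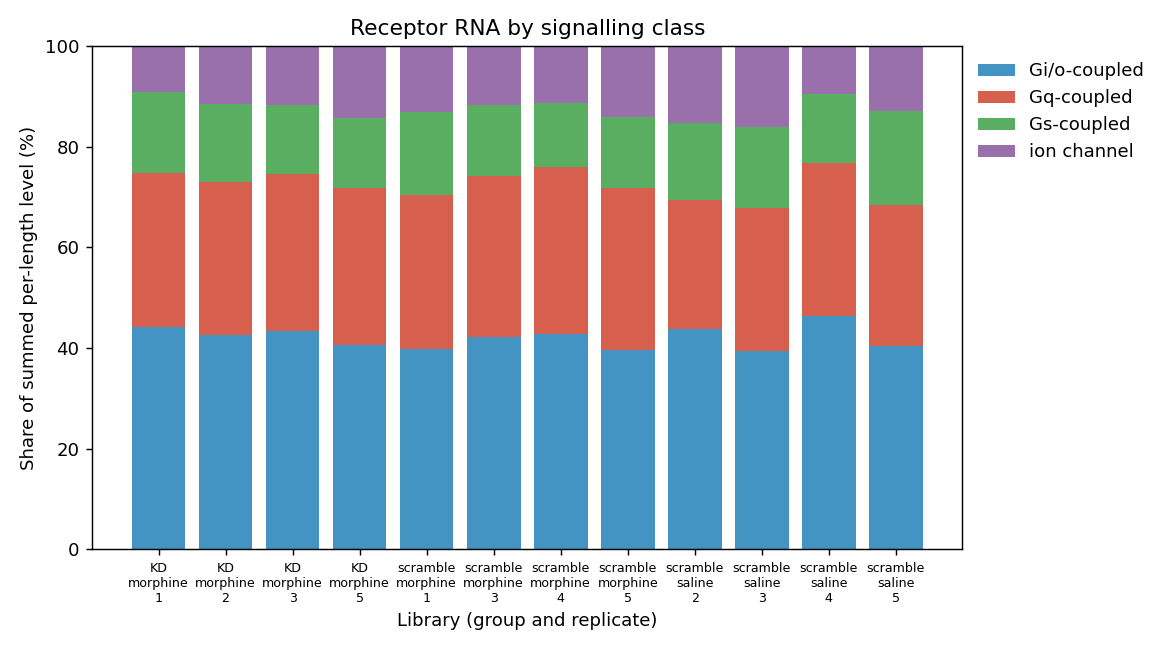
Share of the summed per-length level (by full exon length) of the 10 receptor genes held by each signalling class, as stacked percentages per library. The Gi/o-coupled share lies between 39.5 and 46.4% and the channel share between 9.14 and 16.1% over the 12 libraries.

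The start regions of 3 members are shown because Htr6 is the gene the virus targets and Htr2a and Htr1a had the highest mean per-length levels by full exon length. They are RefSeq windows of build GRCm38.p6, 250 bases before to 50 after an annotated start, written in the direction of transcription, with each GC box (GGGCGG or, on the other strand, CCGCCC) in capitals: Htr6 from chr4:139075521-139075820 (minus strand), Htr2a from chr14:74640624-74640923 (plus strand) and Htr1a from chr13:105443443-105443742 (plus strand).
Htr6: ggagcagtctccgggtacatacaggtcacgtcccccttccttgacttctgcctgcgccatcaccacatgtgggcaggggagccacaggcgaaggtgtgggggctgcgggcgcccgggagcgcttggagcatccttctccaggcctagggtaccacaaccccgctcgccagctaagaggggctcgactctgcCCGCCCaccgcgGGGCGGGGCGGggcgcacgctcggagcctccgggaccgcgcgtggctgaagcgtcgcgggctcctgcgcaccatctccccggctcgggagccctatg
Htr2a: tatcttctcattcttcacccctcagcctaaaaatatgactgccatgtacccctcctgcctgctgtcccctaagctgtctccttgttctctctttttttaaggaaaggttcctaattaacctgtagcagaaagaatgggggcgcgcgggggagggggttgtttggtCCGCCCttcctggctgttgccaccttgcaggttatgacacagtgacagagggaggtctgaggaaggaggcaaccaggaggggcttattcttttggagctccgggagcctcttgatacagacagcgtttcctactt
Htr1a: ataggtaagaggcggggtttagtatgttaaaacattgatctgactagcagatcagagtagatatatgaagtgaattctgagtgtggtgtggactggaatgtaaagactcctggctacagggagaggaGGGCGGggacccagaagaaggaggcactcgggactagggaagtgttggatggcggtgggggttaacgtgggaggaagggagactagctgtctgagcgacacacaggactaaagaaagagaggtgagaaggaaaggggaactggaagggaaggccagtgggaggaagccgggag

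The Htr6 window shown was 71.0% G and C with 29 CpG pairs and held 3 GC boxes, 2 of which overlap. The other Htr6 window, around a second annotated start (chr4:139074740-139075039, minus strand), was 57.0% G and C with 10 CpG pairs and held 0 GC boxes. The Htr2a window was 52.0% G and C with 6 CpG pairs and the Htr1a window 52.3% with 7, each with 1 GC box. The median of 32851 windows of all genes was 52.7% and 7 CpG pairs, and 35.7% of these windows held a GC box. Of the family, 8 genes had such a window, 9 windows in all since Htr6 had 2, and the other two, Htr3a and Htr4, are named only. No window of the 8 genes held the TATAAA motif, which 13.6% of all windows held, or the cyclic AMP response element TGACGTCA, which 1.79% held. CCAAT was found in the windows of Htr1b and Htr2c, against 37.4% of all windows. These matches describe letters in the windows and say nothing of the factors that bind them.

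The remaining serotonin receptor genes of the annotation lay near the lower end of detection. Htr1d, which encodes a relative of the Htr1b product, averaged 0.316 CPM with 6 to 41 counts per library, and Htr5b averaged 0.519 CPM with 11 to 50 counts. Htr2b averaged 0.208 CPM with 0 to 25 counts, and it overlaps an exon of Psmd1, a gene of the proteasome on the opposite strand. Htr3b, the partner subunit of Htr3a in the channel, had 7 counts in 1 library of scramble with saline and 0 in the other 11, where 3 counts, the limit that a count of 0 allows, correspond to 0.0449 to 0.0746 CPM.

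The members with the most counts varied least. The coefficient of variation of CPM over the 12 libraries was lowest for Htr2c (12.2%), Htr5a (13.3%), Htr1a (13.8%) and Htr2a (14.9%), which had 11011 to 24022 counts in all, and highest for Htr3a (23.6%) and Htr4 (27.7%). The highest library exceeded the lowest by 1.60 times for Htr1a and by 2.39 times for Htr3a. Htr3a stood out in that its 4845 counts in all exceeded those of Htr6 (3622), Htr7 (3371) and Htr1f (1549), which varied less (20.8, 18.3 and 18.7%).

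The protein-coding genes whose log2 CPM ran most like each member over the 12 libraries were sought among 13948 genes, as a description. Htr5a was most like Abca6 (Pearson r = 0.961, Spearman rho = 0.860), and Htr1a was most like Napb (r = 0.942, rho = 0.874), which encodes a protein of vesicle fusion. Htr3a was most like Adamts3 (r = 0.935, rho = 0.979), Htr2a most like Ptpn3 (r = 0.923, rho = 0.867) and Epb41l3 (r = 0.910, rho = 0.930), and Htr1b most like Sorcs2 (r = 0.918, rho = 0.678). The highest coefficients were lower for Htr6, with Ubac2 (r = 0.881, rho = 0.762) and Efl1 (r = 0.877, rho = 0.790). They were lower still for Htr7 with Det1 (r = 0.875, rho = 0.860) and Htr2c with Lekr1 (r = 0.866, rho = 0.483). Htr4 followed with Syce2 (r = 0.855, rho = 0.846), and Htr1f had the lowest, with Ccdc191 (r = 0.819, rho = 0.881). No member was among the 2 genes most like another member. The 12 points share library, depth and ribosomal share, and the highest of so many coefficients is high by selection.

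Genes that make, move and break down serotonin were also measured, as a list of 12 of which 10 passed the filter. None was called in any comparison by edgeR, and the list had 4, 6 and 3 of 10 log2 fold changes above 0 in knockdown against scramble with morphine, morphine against saline, and knockdown with morphine against scramble with saline (medians -0.19, 0.09 and -0.12, against 0.00 over all genes in each). The smallest p in the list belonged to Slc29a4, the plasma membrane monoamine transporter that takes up serotonin, at 3.90 ± 2.21 CPM in knockdown with morphine against 9.40 ± 0.806 CPM in scramble with morphine (SD, n = 4 each). The log2 difference of -1.26 had an SE of 0.39 and an edgeR adjusted p of 0.309. Against the 9.15 ± 3.85 CPM of scramble with saline it came to -1.22, with an SE of 0.39 and an edgeR adjusted p of 0.378. Among 23 G proteins, cyclases, phospholipases and potassium channels that serotonin receptors use, 0 were called, and 12, 12 and 14 log2 fold changes lay above 0 (medians 0.01, 0.00 and 0.05). Plcb4, a phospholipase C downstream of Gq, had the smallest p, with a log2 fold change of -0.40 in knockdown against scramble with morphine (SE 0.10, edgeR adjusted p = 0.264; 45.6 ± 6.33 against 60.2 ± 5.01 CPM, SD, n = 4 each). With morphine against saline the smallest p of that list was that of Gnai1, an inhibitory G protein subunit, at -0.07 (SE 0.06, edgeR adjusted p = 0.999).

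Among 18 proteins that bind or process serotonin receptors, 0 were called, with 9, 13 and 12 log2 fold changes above 0 (medians 0.01, 0.02 and 0.04). Mpdz, a scaffold with many PDZ domains that binds the Htr2c product, had 93.4 ± 7.57 CPM in knockdown with morphine against 76.7 ± 4.26 CPM in scramble with morphine (SD, n = 4 each). The log2 difference was 0.28 with an SE of 0.07 (edgeR adjusted p = 0.248), and 0.31 with an SE of 0.07 against scramble with saline (edgeR adjusted p = 0.232). With morphine against saline under the scramble virus, the smallest p belonged to Maob among the serotonin metabolism genes (log2 fold change 0.26, SE 0.12) and to Adarb2 among the binding and processing genes (-0.19, SE 0.12), both with an edgeR adjusted p of 0.999. The editing enzyme genes Adar and Adarb1, which act on the Htr2c transcript, were present at 207 to 255 and 155 to 211 CPM over the 12 libraries, but editing itself was not measured.

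Tissue that could carry receptor RNA from elsewhere was checked by marker lists. Of 12 choroid plexus genes, which would bring Htr2c with them, the summed level was 5.09 to 9.24 CPM in knockdown with morphine, 5.39 to 9.06 CPM in scramble with morphine and 4.76 to 8.15 CPM in scramble with saline. The defining marker Ttr was at 0 to 0.611 CPM and Otx2 had 0 to 5 counts, while Kl was at 1.87 to 5.24 CPM, Kcnj13 at up to 2.78 CPM and Aqp1 at up to 2.09 CPM. The part of choroid plexus in the Htr2c values was not tested. The 10 markers of striatal projection neurons, a cell type known for Htr6, summed to 145 to 175 CPM in knockdown with morphine, 145 to 166 CPM in scramble with morphine and 161 to 182 CPM in scramble with saline, while the defining marker Isl1 had 0 to 4 counts. Excitatory cortical markers summed to 4485 to 5853 CPM in knockdown with morphine, 5111 to 5525 CPM in scramble with morphine and 4906 to 5531 CPM in scramble with saline. Knockdown replicate 1 was the lowest library of that list as well, at 4485 CPM, followed by scramble saline replicate 4 at 4906 CPM. Of these marker genes none was called in any comparison by edgeR.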

How the data were processed

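The authors deposited 1 table of whole-number counts per gene for 12 libraries. Oligo(dT) selection and a strand marked with dUTP preceded paired-end sequencing, per the labels' protocols. Tools listed in the submitters' processing notes, with no role given, are edgeR, DESeq2, StringTie 1.3.4d, HISAT2 2.0.4 and cutadapt 1.9, with mm10 as the build. The counts may therefore be estimates from StringTie. The sources used here give neither the annotation nor the use of strand in counting, which leaves overlapping and antisense genes uncertain. Of 55401 gene IDs, 55141 matched a symbol of GENCODE release M21, which has the same assembly as mm10 and gave coordinates and exon lengths; unmatched IDs took 0.0126 to 0.0275% of counts.

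The deposited counts were tested with the quasi-likelihood test of edgeR 4.0.16 (R 4.3.3) on all 12 libraries with 1 mean per group, TMM scaling, a robust fit and filterByExpr with its minimum of 10 counts, which left 21958 genes (biological coefficient of variation 23.2%, 9 residual degrees of freedom). Two-sided p-values were adjusted over all genes by Benjamini and Hochberg's method, with 0.05 as the threshold. Exact permutation tests compared mean log2 CPM with 0.5 added to each count. Per-length levels include the ribosomal RNA locus in their total, so groups were compared by CPM or by shares within a library. Intervals are 95% confidence intervals of the fold between group means and do not give the range of single libraries. They use the t distribution, with each SE taken from the log2 fold change and the F statistic of its test.

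Libraries were grouped by the treatment in the labels. All 10 receptor genes and 4 further receptor genes were named in full. Of the lists of serotonin metabolism, signalling and receptor-binding genes, those that passed, otherwise the 1 with the smallest p, were named. No gene was named by its p as part of a marker list. The gene most like each member was named, and the second most like it for some members only. Further list genes given as levels were named after their values were seen. The members and lists were chosen with earlier results of these data known. Alternatives were other scalings, filters, lengths and tools (DESeq2 1.42.0, limma 3.58.1), a fit of 2 groups only, a replicate block, the CT010467.1 share as a covariate, 1 surrogate variable (sva 3.50.0), and leaving out single libraries. The tests were tried on simulated counts beforehand. No 2 libraries agreed within sampling noise, since pairs within a group differed by a chi-square per gene of at least 13.4 and pairs between groups of at least 22.9.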

Additional observations from a re-analysis of the deposited data

Results flagged for a closer look

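In groups of 4 libraries, a gap between the extreme library and its nearest neighbour of more than 0.829 of the range of the group was taken as a library apart. Among 30 combinations of receptor gene and group, 2 met this, and chance gives about 1 in 20. Htr1a in scramble saline replicate 4 stood at 22.5 CPM, where the other 3 saline libraries lay between 17.0 and 17.5 CPM. The same library was the lowest of its group for 7 other members, among them Htr1b at 9.80 CPM and Htr3a at 4.71 CPM. Without it, the log2 fold change of Htr1a was 0.08 in knockdown with morphine against scramble with saline, in place of -0.02. Htr1f in scramble morphine replicate 3 stood at 2.84 CPM, where the other 3 libraries of that group lay between 1.88 and 2.04 CPM. Without it, the log2 fold change of Htr1f was 0.14 in knockdown against scramble with morphine, in place of -0.02. No explanation of either was tested.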

How the results depend on the processing

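No receptor gene was called in any of 3 comparisons under any of 22 alternatives, and the smallest edgeR adjusted p among them was 0.184, for Htr5a in knockdown against scramble with morphine with the replicate number as a block. Of 30 log2 fold changes, 10 kept their sign under every alternative, among them all values of Htr6 and Htr2a except those of knockdown against scramble with morphine, and 58 of 660 recomputed values changed sign. Over all genes, edgeR called 0, 0 and 3 genes in the 3 comparisons, DESeq2 called 167, 6 and 152, and leaving out knockdown replicate 5 gave 375, 0 and 55, with 0 receptor genes among them. The number of neighbour pairs that differed in level ran from 5 to 6 of 9 as each library was left out. With 4 libraries a group, the intervals of the members' folds set what could be detected; at its low counts Htr4 had the widest.

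With the share at CT010467.1 as a covariate, the knockdown against scramble values with morphine became 0.12 for Htr2a, 0.12 for Htr5a, 0.23 for Htr3a, 0.15 for Htr1f, 0.15 for Htr7 and -0.24 for Htr4. The morphine against saline values became -0.032 for Htr7, -0.076 for Htr5a, 0.097 for Htr2c and 0.13 for Htr4, and the knockdown with morphine against saline values -0.061 for Htr1b, -0.10 for Htr4, 0.039 for Htr5a and 0.080 for Htr1a. With 1 surrogate variable, knockdown against scramble with morphine gave 0.017 for Htr7, 0.026 for Htr1b, 0.052 for Htr2c, 0.093 for Htr6, 0.12 for Htr3a and 0.16 for Htr1f. The share of the locus in scramble with morphine overlapped neither other group. In comparisons with that group, the covariate and the group can therefore not be fully told apart. The cause of the sign changes was not tested. In knockdown with morphine against scramble with saline, Htr1b became -0.045 by library totals only, -0.12 by limma voom with sample weights, -0.010 with no filter and -0.00018 with the 2 groups alone; Htr7 became -0.017 by library totals and -0.0029 by voom, and Htr1a 0.051 by voom. By library totals, Htr2c became 0.011 in morphine against saline.

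The replicate numbers were shared between groups, but libraries of the same number did not deviate together throughout (correlations of -0.03 to 0.24 over 9 pairs, against -0.31 to 0.21 over 39 pairs of other numbers), so they were not taken as pairs. With the replicate block, Htr7 became -0.049 and Htr1a 0.064 in knockdown with morphine against scramble with saline, and Htr2c became 0.052 and Htr3a 0.092 in morphine against saline, and the block called 0 receptor genes.

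As each library was left out in turn, 10 values changed sign, none of them larger in size than the -0.07 of Htr3a in morphine against saline. In knockdown against scramble with morphine, Htr1f ran from -0.13 to 0.14, Htr2c from -0.12 to 0.11 and Htr7 from -0.16 to 0.077. In morphine against saline, Htr2c ran from -0.054 to 0.051, Htr3a from -0.25 to 0.057 and Htr7 from -0.045 to 0.16. In knockdown with morphine against scramble with saline, Htr1a ran from -0.085 to 0.084, Htr1b from -0.13 to 0.079, Htr2c from -0.12 to 0.099 and Htr7 from -0.089 to 0.14.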

Other observations

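Ratios of per-length levels between 2 receptor genes of the same library do not depend on its scaling. Of the 45 pairs of members, 0 had groups without overlap in knockdown against scramble with morphine, 2 (4.44%) in morphine against saline under the scramble virus, and 2 (4.44%) in knockdown with morphine against scramble with saline. For single genes, groups without overlap made up 5.85, 3.32 and 4.34% of all genes tested in these comparisons, and the share over pairs of other genes was not computed. The counts of pairs are near those shares, so nothing is read from them. The ratios below were chosen after their values were seen and carry no test. The ratio of Htr2a to Htr1a was 1.25, 1.42, 1.49 and 1.96 in knockdown with morphine, 2.05, 1.83, 2.05 and 2.08 in scramble with morphine, and 1.29, 1.63, 1.07 and 1.71 in scramble with saline. The ratio of Htr1b to Htr6 ran from 1.36 to 1.48 in knockdown with morphine, 1.31 to 2.05 in scramble with morphine and 0.986 to 1.26 in scramble with saline. The ratio of Htr4 to Htr6 was 0.116 to 0.206 in knockdown with morphine, 0.0859 to 0.155 in scramble with morphine and 0.0968 to 0.114 in scramble with saline. The ribosomal share of counts was 4.57 to 9.38% in knockdown with morphine, 2.38 to 3.04% in scramble with morphine and 3.58 to 5.63% in scramble with saline, and its part in these ratios was not tested.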
